A study of Mus musculus with 23 samples.

Results

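The 10 assays for 5 microRNAs (miRNAs) of one imprinted cluster, miR-127, miR-136, miR-431, miR-433 and miR-434, were followed across 23 mouse retina samples in 7 groups. The members were all rows of a deposited stem-loop RT-qPCR table whose base name is mir-127, mir-136, mir-431, mir-433 or mir-434, whatever their values, which gave 10 of 522 assays. Each miRNA has 2 assays, and each pair covers the 5' arm (5p) and the 3' arm (3p) of its hairpin. By the naming used for such panels, the assays written here miR-127 and miR-433 were read as the 3p arm, miR-136 and miR-431 as the 5p arm, and the hash sign in miR-136# and miR-431# as the other arm. The labels do not give the arms of those assays.

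The samples are treated as 2 sets because their labels assign them to 2 different figures of the study's paper; the labels name no run or date. Wild-type (WT) as well as double-knockout (DKO) retinas are part of both, and all mice are described as of mixed background. The first set held 3 WT samples, 3 DKO samples titled with the Chx10Cre driver, floxed Rb (Rb lox/lox) and p107 -/-, 3 DicKO samples titled Dicer1 lox/lox, and 4 DKO_DicKO samples with the DKO alleles and floxed Dicer1 together. The second set held 3 WT, 3 DKO and 4 DKO_P53KO samples, whose labels give those names and no alleles; DKO_P53KO was read as the DKO genotype with loss of p53 added. Rb and p107 are related pocket proteins that restrain the cell cycle, p53 is a stress-activated tumour suppressor, and Dicer1 is the enzyme that cuts miRNA hairpins into mature miRNAs. Chx10Cre is active in retinal progenitor cells and known to be mosaic, so cells with intact floxed alleles can remain in the tissue. No Cre is named for the DicKO samples, and how far Dicer1 was lost is not stated. The labels are silent on age, on litter and on whether samples came from separate animals, so p-values measure only the spread between these samples, which may be technical.

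The 5 miRNAs lie in the Dlk1-Dio3 domain, a stretch of mouse chromosome 12 whose noncoding RNAs are transcribed from the maternal chromosome. Their hairpins come from a transcript antisense to Rtl1, a retrotransposon-derived gene expressed from the paternal chromosome, and the miRNAs are known to guide cleavage of the Rtl1 transcript. Beyond them, the domain holds one of the largest miRNA clusters of the mouse genome, with many members known from neural tissue.

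In the RefSeq annotation of GRCm38.p6, all 5 hairpins lie on the plus strand of chromosome 12, inside the annotated span of Rtl1 (chr12:109564900-109604418) and within 4942 bases. From left to right they are Mir431 (chr12:109590447-109590537), Mir433 (chr12:109591715-109591838), Mir127 (chr12:109592846-109592915), Mir434 (chr12:109594506-109594599) and Mir136 (chr12:109595327-109595388). Mir3071 on the minus strand overlaps all 62 bases of Mir136. RefSeq mature sequences were found for 10 of 10 assays. The 7 detected in the second set are printed 5' to 3' because the differences described below lie among them, together with miR-431-3p, with the seed (bases 2 to 8) in capitals.
miR-431-5p: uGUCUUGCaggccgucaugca
miR-431-3p: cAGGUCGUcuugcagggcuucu
miR-433-3p: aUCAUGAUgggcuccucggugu
miR-127-3p: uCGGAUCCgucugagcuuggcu
miR-127-5p: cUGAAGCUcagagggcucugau
miR-434-3p: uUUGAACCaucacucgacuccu
miR-434-5p: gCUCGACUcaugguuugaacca
miR-136-5p: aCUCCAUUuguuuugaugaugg

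The 10 mature sequences have 10 distinct seeds, and none of these seeds occurs at the same position in any other of 1679 RefSeq mouse mature miRNAs. The members therefore share a place in the genome and not a seed. The longest stretches that members share join the arms of one hairpin. The arms of miR-431 share the 10 bases gucuugcagg, so the seed of miR-431-5p recurs at base 7 of miR-431-3p. The arms of miR-434 share the 9 bases uuugaacca, and the seed of each arm recurs within the other, at base 15 of miR-434-5p and at base 13 of miR-434-3p. Over all 45 pairs of the 10 sequences the median longest shared run was 4 bases. How far the primers of one arm read the other was not tested.

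The table gives the quantification cycle (Cq), the PCR cycle at which a well crosses a threshold, so abundant miRNAs have low values, and each cycle earlier stands for about a doubling of template. Detection was set at a Cq of 32 or below. The scaled level of an assay is its distance below the mean Cq of those assays that were detected throughout its set, a log2 value in which higher means more. Tests ran on these levels over all assays of the table with limma, two-sided, and a change was called at a Benjamini-Hochberg adjusted p under 0.05. Cq differs between assays also with primer efficiency, so levels are compared between groups and not between assays.

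A first-set sample had 91 to 228 detected assays of the whole table, and a second-set sample 307 to 350. Mean Cq of the assays used for scaling was 24.5 ± 1.04 (SD, n = 3) in WT, 24.8 ± 1.04 (n = 3) in DKO, 27.3 ± 1.84 (n = 3) in DicKO and 27.3 ± 0.896 (n = 4) in DKO_DicKO retinas of the first set. In the second set it was 24.0 ± 0.461 (n = 3) in WT, 24.4 ± 0.312 (n = 3) in DKO and 22.8 ± 0.461 (n = 4) in DKO_P53KO retinas, 1.63 cycles earlier than in DKO (exact permutation test, two-sided, p = 0.0571, the lowest value possible for 4 against 3; 0.133 after adjustment over 7 tests). These shifts of the whole table are removed by the scaling and are given back below where they turn a direction. As a check of the tissue, the miR-183 cluster of sensory cells, which also holds miR-96 and miR-182, was read by 4 assays, of which 3 were detected throughout the first set and 4 throughout the second. The 1 red blood cell assay was detected in no sample of either set. Without any positive sample it cannot be told from an assay that failed, so it says nothing about blood in the tissue. Because the samples are bulk tissue, fewer cells of a type and less RNA per cell cannot be told apart.

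Detection of the members differed sharply between the sets. In the second set, 7 member assays were detected in 10 of 10 samples: miR-127, miR-127-5p, miR-136, miR-431, miR-433, miR-434-3p and miR-434-5p. In the first set only miR-127 and miR-434-3p were detected in 13 of 13 samples, while miR-136 was detected in 12, miR-433 in 3 and miR-434-5p in 1. MiR-127-5p, miR-136#, miR-431, miR-431# and miR-433-5p had no Cq in any first-set sample. MiR-431 was 1 of 31 assays of the table with no Cq in all first-set samples and a Cq of 30 or lower in all second-set samples, so a missing value there does not show a low level. MiR-431# and miR-433-5p had no Cq in any of the 23 samples. MiR-136# had a Cq of 31.8 to 34.7 in each second-set sample and passed the detection limit in 1 of 10.

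Within a hairpin, one arm came up earlier than the other wherever both were read. In second-set WT retinas the Cq of miR-127 was 18.8, 19.5 and 19.9, against 29.8, 29.2 and 30.1 for miR-127-5p. The gap between them was 9.75 to 11.1 cycles in WT, 10.7 to 11.4 in DKO and 9.65 to 11.1 in DKO_P53KO retinas, with overlapping ranges. MiR-434-3p had a Cq of 19.5, 20.1 and 20.6 in WT against 25.4, 25.8 and 26.2 for miR-434-5p. That gap was 5.58 to 5.87 cycles in WT, 5.15 to 5.87 in DKO and 4.57 to 5.26 in DKO_P53KO retinas, so the DKO_P53KO range lay below the WT range and overlapped the DKO range.

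**Figure D1:**
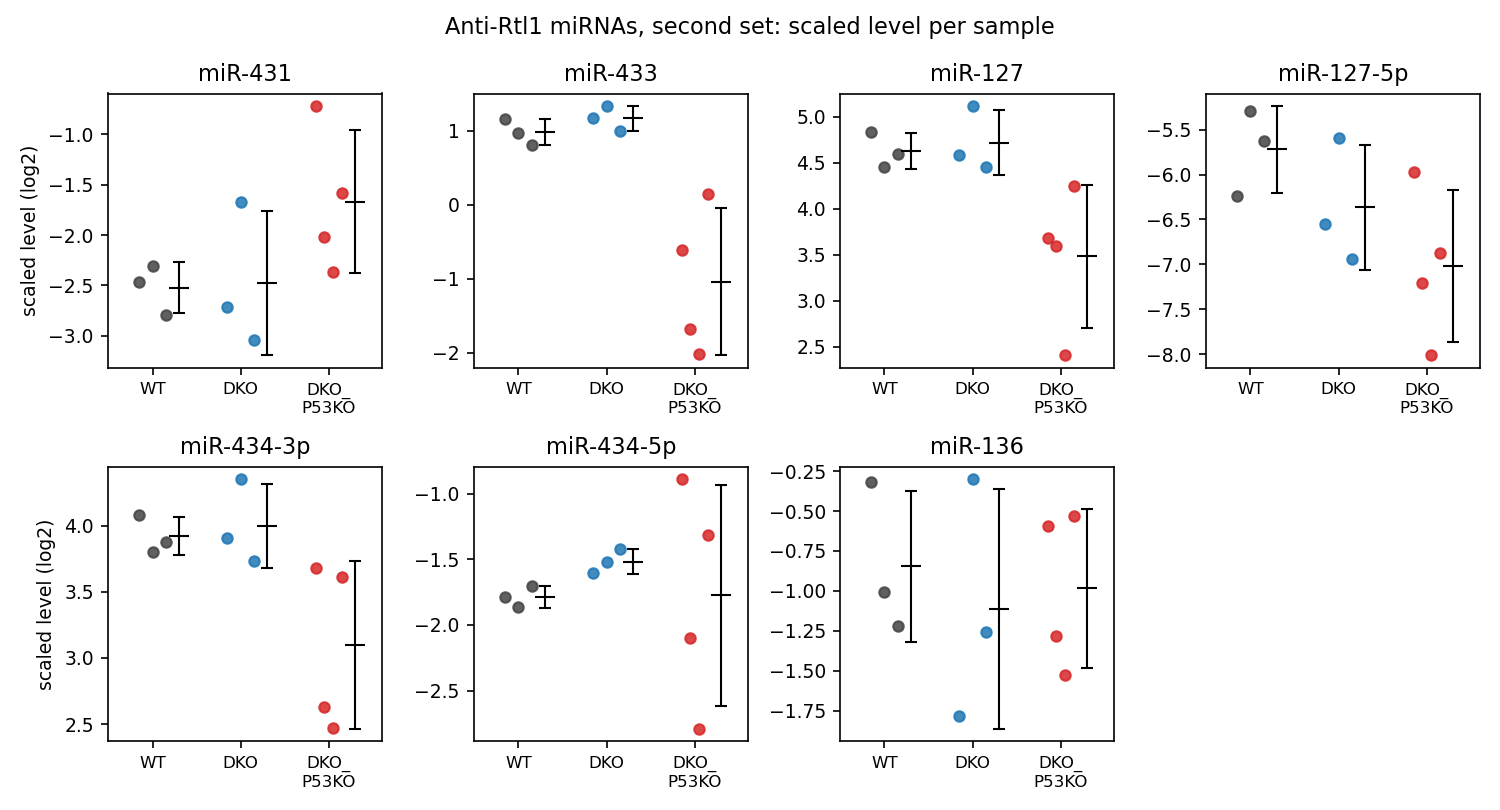
Scaled level (log2, higher means more) of the 7 member assays detected in all 10 samples of the second set, in genome order, 1 point per sample, with the group mean and SD beside the points; each panel has its own axis. The 4 DKO_P53KO points of miR-433 and of miR-127 lie below all WT and DKO points, whereas those of miR-431 and miR-136 overlap both groups.

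MiR-433 showed the largest fall of the 7 members in DKO_P53KO retinas. Its scaled level was 1.16, 0.97 and 0.81 in WT, 1.18, 1.33 and 0.99 in DKO, and -0.61, -1.68, -2.02 and 0.15 in DKO_P53KO retinas. All 4 DKO_P53KO samples lay below all 6 others, and they were also the most scattered, with replicate 4 nearest to the controls. The log2 change against DKO was -2.21 ± 0.468 (SE; limma, adjusted p = 0.0068) and against WT -2.02 ± 0.468 (adjusted p = 0.00686). Both calls were kept when any 1 compared sample was left out, at changes of -2.61 to -1.86 against DKO and -2.42 to -1.68 against WT. WT and DKO did not differ for miR-433 beyond their spread (0.19 ± 0.498, adjusted p = 0.969).

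MiR-127 fell in the same comparison by a smaller and less stable amount. Its scaled level was 4.84, 4.46 and 4.59 in WT, 4.58, 5.12 and 4.45 in DKO, and 3.68, 3.60, 2.40 and 4.25 in DKO_P53KO retinas. Again the DKO_P53KO samples lay below all others, with replicate 3 lowest and replicate 4 nearest the controls. The change was -1.24 ± 0.398 against DKO (limma, adjusted p = 0.0347) and -1.15 ± 0.398 against WT (adjusted p = 0.0402). The call against DKO was lost without any single DKO sample or without DKO_P53KO replicate 1 or 2, and the call against WT without any single WT sample or the same DKO_P53KO replicates, with adjusted p up to 0.109 and 0.128.

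MiR-434-3p had lower scaled levels too but missed the threshold. Its scaled level was 4.08, 3.80 and 3.88 in WT, 3.91, 4.35 and 3.73 in DKO, and 3.68, 2.63, 2.47 and 3.61 in DKO_P53KO retinas. The groups did not overlap, although DKO_P53KO replicate 1 came close to DKO replicate 3. The change was -0.90 ± 0.342 against DKO (limma, adjusted p = 0.0591) and -0.82 ± 0.342 against WT (adjusted p = 0.0741). It passed in both comparisons without DKO_P53KO replicate 1 (-1.07, adjusted p = 0.0349, and -0.99, adjusted p = 0.0402) and without replicate 4 (-1.07, adjusted p = 0.0387, and -0.99, adjusted p = 0.0450), and with the median as the reference (-0.94, adjusted p = 0.0403, and -0.91, adjusted p = 0.0392). The other arm, miR-434-5p, stood at -1.79, -1.87 and -1.70 in WT, -1.61, -1.52 and -1.42 in DKO, and -0.89, -2.10, -2.79 and -1.31 in DKO_P53KO retinas. Those last 4 values straddled both control groups, and the change was -0.26 ± 0.401 against DKO (adjusted p = 0.61) and 0.01 ± 0.401 against WT (adjusted p = 0.981).

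MiR-431 had the highest change of the 7 members in DKO_P53KO retinas, without passing the test. Its scaled level was -2.46, -2.30 and -2.79 in WT, -2.72, -1.67 and -3.04 in DKO, and -0.72, -2.02, -2.36 and -1.58 in DKO_P53KO retinas. DKO replicate 2 lay among the DKO_P53KO samples, and DKO_P53KO replicate 3 among the WT samples. The change was 0.81 ± 0.439 against DKO (limma, adjusted p = 0.163) and 0.85 ± 0.439 against WT (adjusted p = 0.135). Without those 2 samples together, a choice made after seeing the data, it was 1.44 (adjusted p = 0.0211) and 1.08 (adjusted p = 0.0293).

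MiR-136 and miR-127-5p did not pass the test. The level of miR-136 was -0.32, -1.01 and -1.22 in WT, -1.78, -0.30 and -1.26 in DKO, and -0.59, -1.28, -1.53 and -0.53 in DKO_P53KO retinas, and the 3 groups covered much the same range. The change was 0.13 ± 0.413 against DKO (limma, adjusted p = 0.796) and -0.14 ± 0.413 against WT (adjusted p = 0.814). MiR-127-5p was read late, at Cq 28.7 to 31.5, and its lowest DKO_P53KO sample was raised to the floor of -7.40 set for low values. Its change was -0.50 ± 0.436 against DKO (adjusted p = 0.374) and -1.14 ± 0.436 against WT (adjusted p = 0.0547). The change against WT passed without DKO_P53KO replicate 1 (-1.42, adjusted p = 0.0193), with the median as the reference (-1.23, adjusted p = 0.0351) and with only assays detected in every sample tested (adjusted p = 0.0498).

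As a list, 2 of 7 tested members were called against DKO, both lower, where 40.9% of all 330 assays tested were called, 19.7% higher and 21.2% lower. Against WT again 2 of 7 were called, both lower, with 47.0% of 330 assays called, 21.8% higher and 25.2% lower. The share of members called was below that of the table, and the share called lower was close to it, so these counts set the list apart from no other assays. Their median change was -0.50 against DKO and -0.82 against WT, beside -0.05 and -0.07 over all assays tested. In 3 of 7 members the DKO_P53KO levels overlapped neither those of DKO nor those of WT, where 45.2% and 53.6% of the 330 assays were without overlap. Both comparisons use the same 4 DKO_P53KO samples, and they are not independent of each other.

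The other assays of the Dlk1-Dio3 domain were more often lower than the table as a whole. Of 40 tested against DKO, 19 were lower (47.5%, beside 21.2% of all assays tested) and 2 higher, with a median change of -0.76. The largest changes were those of miR-485-5p (-4.68 ± 1.28, limma, adjusted p = 0.0185), miR-154 (-2.92 ± 0.812, adjusted p = 0.0196) and miR-409-5p (-2.84 ± 0.325, adjusted p = 3.6e-04). Against WT, 16 of 39 were lower (41.0%, beside 25.2%) and 4 higher, with a median of -0.49, led by miR-485-5p (-4.55 ± 1.28), miR-409-5p (-2.60 ± 0.325) and miR-668 (-2.46 ± 0.635). The change of miR-433 thus falls inside the range of the domain, which ran from -4.68 to 1.55 against DKO.

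Setting the members against the rest of the domain separated miR-431 from miR-433. Here the scaling mean was taken over the 35 other Dlk1-Dio3 assays detected in all 10 samples, so that a change is relative to them. Relative to these, miR-431 rose by 1.53 ± 0.336 against DKO (limma, adjusted p = 0.00727) and by 1.37 ± 0.335 against WT (adjusted p = 0.0101). MiR-433 fell by 1.49 ± 0.339 against DKO (adjusted p = 0.00843) and by 1.50 ± 0.337 against WT (adjusted p = 0.0070). Under this reference 33.3% of all assays were called higher and 7.27% lower against DKO, and 28.2% and 9.39% against WT. MiR-433 therefore moved in the rarer direction and miR-431 in the common one. The call for miR-431 against WT was lost without WT replicate 3 (adjusted p = 0.0504), and the other 3 calls were kept without any 1 compared sample.

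The remaining 5 members did not pass the test relative to the domain. Against DKO, miR-127 stood at -0.51 ± 0.317 (limma, adjusted p = 0.222), miR-434-3p at -0.18 ± 0.247 (adjusted p = 0.594) and miR-127-5p at 0.07 ± 0.369 (adjusted p = 0.904). MiR-434-5p stood at 0.47 ± 0.266 (adjusted p = 0.193) and miR-136 at 0.85 ± 0.36 (adjusted p = 0.0818). Against WT the values were -0.63 ± 0.315 for miR-127, -0.30 ± 0.244 for miR-434-3p, -0.78 ± 0.368 for miR-127-5p, 0.53 ± 0.264 for miR-434-5p and 0.39 ± 0.358 for miR-136 (adjusted p from 0.121 to 0.409). Without DKO_P53KO replicate 3, miR-434-5p passed against DKO (0.70, adjusted p = 0.0213) and against WT (0.76, adjusted p = 0.0135). The fall of miR-127 seen under the mean of all assays thus did not pass the test against its own domain.

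**Figure D2:**
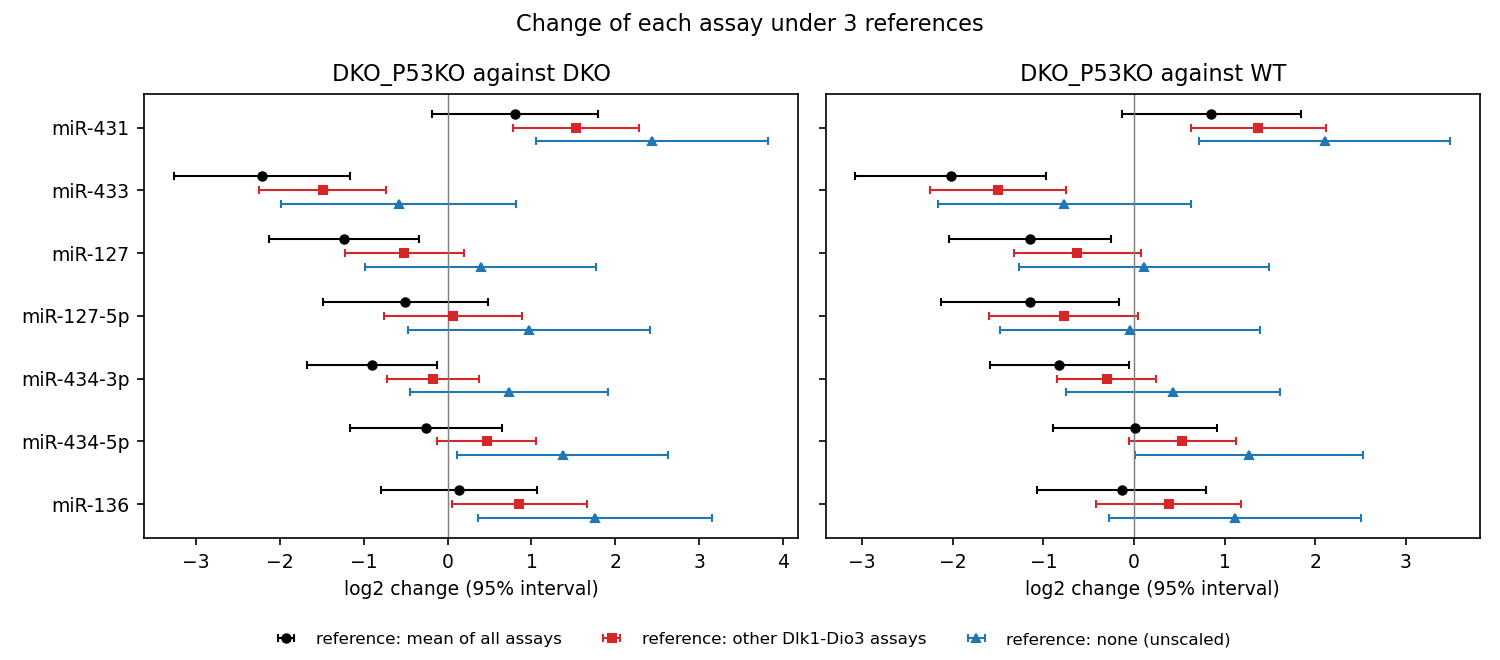
Log2 change with its 95% interval for the 7 members in DKO_P53KO against DKO (left) and against WT (right), with the mean of all assays (black circles), the 35 other Dlk1-Dio3 assays (red squares) or no reference (blue triangles). The estimate of miR-433 lies left of 0 and that of miR-431 right of 0 under each of the 3 references, while miR-127 and miR-434-3p change side without scaling. The intervals cross 0 for miR-433 without a reference and for miR-431 with the mean of all assays.

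Without any scaling, the comparison turns with the earlier Cq of the DKO_P53KO samples. The median unscaled change over all assays tested was 1.53 against DKO and 1.18 against WT. On that scale miR-431 rose by 2.44 ± 0.627 against DKO (limma, adjusted p = 0.00643) and by 2.10 ± 0.626 against WT (adjusted p = 0.0163), and miR-136 rose by 1.76 ± 0.631 against DKO (adjusted p = 0.0334). MiR-433 stood at -0.58 against DKO (adjusted p = 0.433) and -0.77 against WT (adjusted p = 0.332), while miR-127 turned to 0.39 and 0.11 and miR-434-3p to 0.73 and 0.43. The 2 higher calls against DKO compare with 59.7% of all assays called higher on that scale, and the 1 against WT with 48.2%. MiR-433 was thus lower and miR-431 higher than in both control groups under all 3 references, with a call that depends on the reference.

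The difference in Cq between 2 members of the same sample needs no scaling at all. The Cq of miR-431 minus that of miR-433 was 3.63, 3.28 and 3.60 cycles in WT, 3.90, 3.00 and 4.04 in DKO, and 0.11, 0.34, 0.34 and 1.72 in DKO_P53KO retinas. Neighbours on the chromosome, the 2 assays stood more than 3 cycles apart in each of the 6 WT and DKO samples and less than 2 apart in each DKO_P53KO sample. The mean difference fell by 3.02 cycles against DKO and by 2.87 against WT. In each case the exact permutation test gave p = 0.0571, the lowest value possible for 4 against 3, and 0.138 after adjustment over the 63 tests of 21 pairs in 3 comparisons. With any 1 compared sample left out, the change of miR-431 relative to miR-433 was 2.82 to 3.38 against DKO and 2.70 to 3.24 against WT. This pair was picked from the same data as the widest of the 21. Changes at least as large, in either direction, were found in 12.9% of all 40186 assay pairs against DKO and 19.4% against WT. Among the 595 pairs of other Dlk1-Dio3 assays the shares were 3.53% and 4.20%.

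**Figure D3:**
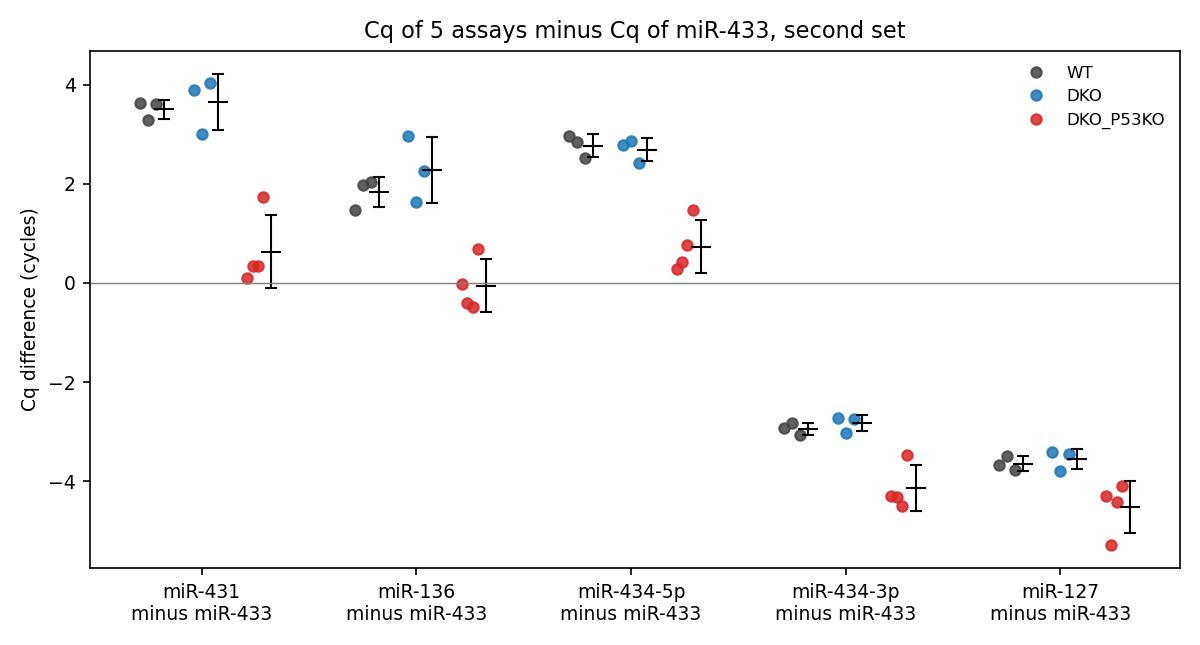
Cq of 5 members minus the Cq of miR-433 in the same sample of the second set, in cycles, 1 point per sample with the group mean and SD; a lower point means more of the member relative to miR-433. For miR-431 the 4 DKO_P53KO samples sit between 0.11 and 1.72 cycles and all WT and DKO samples between 3.00 and 4.04.

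The other members were also set against miR-433, which had the largest fall, so positive changes relative to it follow from that choice. MiR-136 minus miR-433 was 1.48, 1.98 and 2.03 cycles in WT, 2.96, 1.63 and 2.26 in DKO, and -0.02, -0.40, -0.49 and 0.68 in DKO_P53KO retinas. With miR-433 as the reference, a choice made after seeing the data, miR-431 was higher by 3.02 ± 0.475 against DKO (limma, adjusted p = 0.00147), miR-136 by 2.34 ± 0.447 (adjusted p = 0.00195), miR-434-5p by 1.95 ± 0.387 (adjusted p = 0.00223) and miR-434-3p by 1.31 ± 0.361 (adjusted p = 0.0095). MiR-127 was higher by 0.97 ± 0.379 (adjusted p = 0.0414, up to 0.128 with 1 sample left out), and miR-127-5p stood at 0.72 ± 0.38 (adjusted p = 0.111). The value of miR-127-5p is held down by the floor, to which its late readings were raised. Its Cq minus that of miR-433, which needs no floor, averaged 7.53 in DKO and 5.98 in DKO_P53KO retinas, a change of -1.55 cycles with overlapping groups. With 1 sample left out, its limma change was 0.55 to 1.56 (adjusted p from 0.00909 to 0.235). With that reference 69.4% of all assays were called higher against DKO, and the 5 of 6 members called are to be read against that share. Against WT, 4 of 6 members were called, beside 62.0% of all assays called higher: miR-431 at 2.87, miR-434-5p at 2.04, miR-136 at 1.89 and miR-434-3p at 1.20 (adjusted p = 0.0156, up to 0.0649 with 1 sample left out), while miR-127 stood at 0.88 (adjusted p = 0.0638).

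Of the 21 member pairs, 11 did not overlap between DKO_P53KO and DKO and 15 between DKO_P53KO and WT, beside 45.0% and 54.1% of all pairs. The member shares were 52.4% and 71.4%, over pairs that reuse the same 7 assays.

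The tightest pair was miR-127 with miR-434-3p, whose Cq difference ranged over 1.03 cycles across the 10 samples. It was -0.75 to -0.65 in WT, -0.77 to -0.67 in DKO and -0.97 to 0.07 in DKO_P53KO retinas. The pair of miR-431 and miR-433, shown above because it was the widest of the 21, had a range of 3.93 cycles. Hairpins that lie next to each other were thus found at both ends of the order, since Mir127 and Mir434 are separated by 1590 bases and Mir431 and Mir433 by 1177.

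By the correlation of scaled levels over the 10 second-set samples, the 5 assays most like the mean of the 7 members were miR-381 (r = 0.92), miR-410 (0.92), miR-382 (0.92), miR-376a (0.91) and miR-337-3p (0.90). All 5 belong to the Dlk1-Dio3 domain, which supplies 35 of the 277 candidates. In the first set, over 13 samples and with 2 members in the mean, the leading assays were miR-96 (r = 0.70), miR-183 (0.64), miR-218 (0.63), miR-331 (0.53) and miR-296 (0.52), and none of the 59 candidates there belongs to the domain. These values are descriptions; the samples share their scaling and, in part, their group.

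Markers of other cells moved in the same comparisons, given here as calls and as the range of the summed log2 level in DKO_P53KO, DKO and WT retinas. Sensory markers (miR-183, miR-96, miR-182) were lower in 1 of 4 assays against DKO and in 4 of 4 against WT, with sums of -2.60 to 5.18 in DKO_P53KO, 4.39 to 5.85 in DKO and 7.70 to 7.87 in WT retinas. Of the neuron markers (miR-124, miR-9, miR-129) 3 of 6 tested assays were lower against DKO and 4 of 6 against WT, with sums of 6.03 to 8.71, 8.24 to 8.55 and 8.36 to 8.43. Those of lens, ciliary body and pigment epithelium (miR-204, miR-211, miR-184) were lower in 2 of 3 in either comparison, with sums of 7.52 to 8.57, 9.04 to 9.89 and 9.50 to 9.63. Sensory sums of DKO_P53KO retinas thus lay below those of WT without overlap, as did those of DKO retinas. Lens and epithelium sums of DKO_P53KO retinas lay below those of both other groups. White blood cell and microglia markers were higher in 1 of 5 assays against DKO and 3 of 5 against WT, with sums of 3.38 to 4.59, 2.94 to 3.80 and 2.69 to 3.22. These DKO_P53KO sums lay above those of WT and overlapped those of DKO. Vessel markers (miR-126, miR-143, miR-145) were higher in 2 of 4 against DKO and 0 of 4 against WT, with sums of 4.49 to 5.70, 3.38 to 4.43 and 4.72 to 5.05. Vessel sums of DKO thus lay below those of both other groups. Muscle markers were lower in 1 of 4 in either comparison, with sums of -2.70 to 1.06, 0.14 to 0.64 and 0.34 to 0.69. The part of these cells in the changes of miR-433, miR-127 and miR-431 was not tested.

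For DKO against WT in the second set, no member was called. Of 7 members tested, 0 were called in DKO against WT (limma; 0 at an unadjusted p under 0.05), where 0.647% of 309 assays were called and 33 had an unadjusted p under 0.05. Changes ran from -0.64 ± 0.465 for miR-127-5p to 0.27 ± 0.429 for miR-434-5p, with a median of 0.07, beside 0.08 over all assays. The levels of miR-434-5p given above did not overlap, with all 3 DKO samples above all 3 WT samples, and it was 1 of 7 members without overlap, beside 27.8% of assays tested. The intervals stayed wide: that of miR-127 ran from -0.87 to 1.04 and that of miR-433 from -0.93 to 1.30. One of the 21 member pairs, miR-127-5p with miR-431, did not overlap between DKO and WT, where 27.9% of all pairs did not.

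In the first set miR-127 was lower in DKO than in WT retinas. Its scaled level was 0.54, -0.16 and -0.16 in WT and -1.25, -1.19 and -1.47 in DKO retinas, and the groups did not overlap, as in 36.8% of assays tested. The change was -1.37 ± 0.293 (limma, adjusted p = 0.0127), and it was 1 of 3 members called, where 17.3% of assays tested were called and 6.77% were called lower. It lost the call without DKO replicate 3 (adjusted p = 0.0609) and, at a change of -1.68, without scaling (adjusted p = 0.978). Its Cq was later in DKO than in the WT sample of the same number by 2.14, 1.35 and 1.57 cycles, and the mean Cq by 0.35, 0.32 and 0.26. The numbers were not taken to pair samples, and the unscaled limma fit with the replicate block did not call miR-127 either (adjusted p = 0.806). MiR-434-3p stood at -1.29, -1.54 and -1.72 in WT and -2.15, -1.98 and -1.95 in DKO retinas, a change of -0.51 ± 0.457 (adjusted p = 0.60). Marker sums differed without overlap in this comparison for each of the 6 lists with a tested assay. The sums use no floor and count undetected assays as 0. All muscle sums and the WT sums of white blood cell markers lay under the floor of -2.94. Neither of these 2 lists had an assay detected in all first-set samples, and the muscle ranges nearly met, at -4.84 in DKO and -4.83 in WT. Sums were lower in DKO than in WT for sensory (1.45 to 1.80 against 2.99 to 3.24, 1 of 4 assays called lower), vessel (-2.29 to -2.06 against -1.79 to -1.42) and muscle markers (-5.76 to -4.84 against -4.83 to -4.37). They were higher for neuron (5.37 to 5.83 against 5.12 to 5.29), white blood cell and microglia (-2.73 to -2.39 against -3.82 to -3.22) and lens, ciliary body and epithelium markers (6.17 to 6.40 against 5.07 to 5.71, 1 of 3 called higher). No other assay of these lists was called, and their part in the change of miR-127 was not tested.

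**Figure D4:**
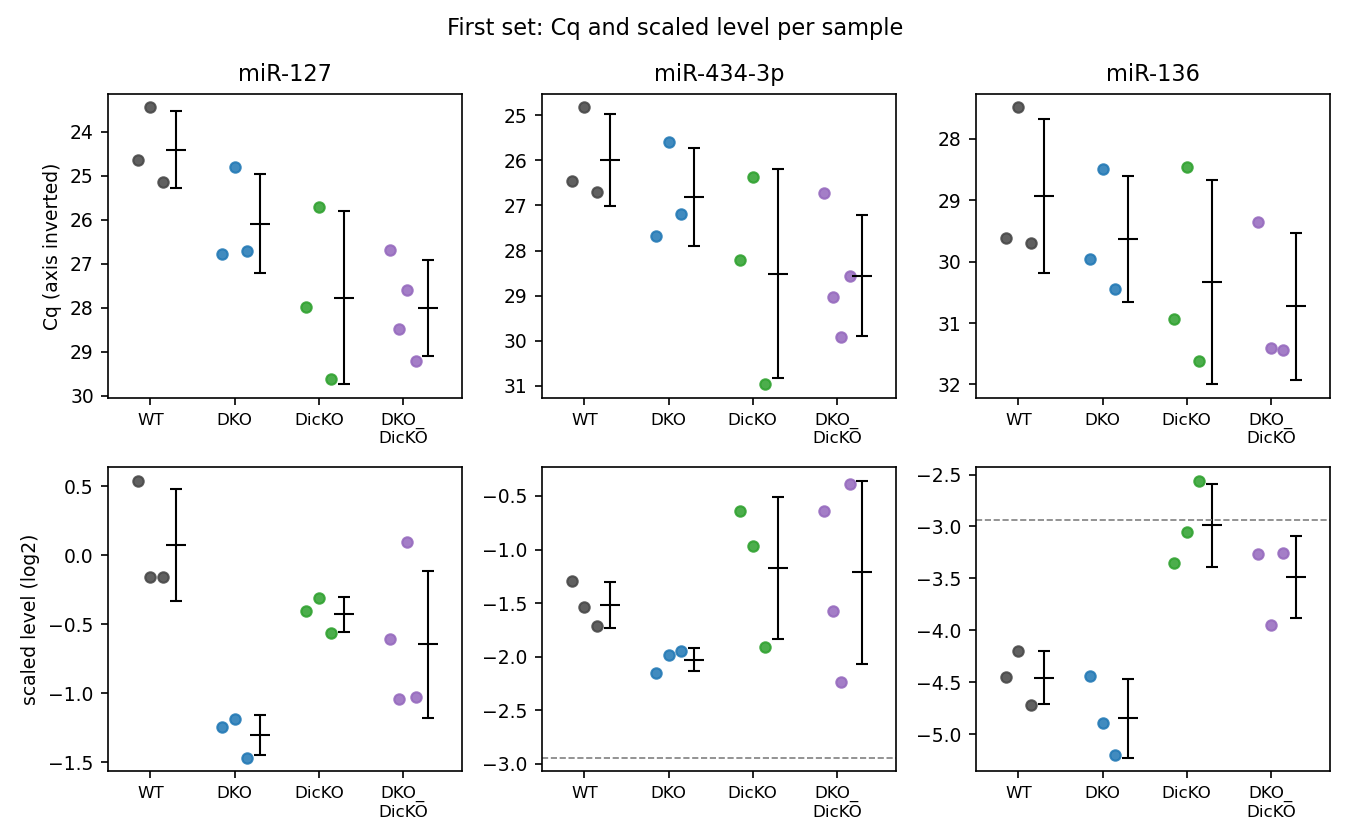
Cq (top, axis inverted so that higher means more template) and scaled level (bottom, log2) of the 3 members detected in at least 12 of 13 first-set samples, 1 point per sample with the group mean and SD; the dashed line is the floor for low values. The scaled DKO points of miR-127 lie between -1.47 and -1.19, below all WT points, whereas the Cq values of both groups overlap.

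The effect on miR-127 differed between the sets. On a common scaling of the 12 WT and DKO samples, DKO minus WT was -1.38 for the samples of the first set and 0.12 for those of the second, a difference of 1.50 ± 0.37 (limma, adjusted p = 0.0283). It was 1 of 3 members called, where 18.6% of 167 assays were called. The call was lost without any single WT sample of the second set, without DKO replicate 3 of the first (adjusted p up to 0.0903) and without scaling (1.40, adjusted p = 0.995). MiR-434-3p differed by 0.63 ± 0.28 in the same direction (adjusted p = 0.154). Of the 15 other Dlk1-Dio3 assays tested, 15 had a difference above 0, beside 89 of all 167 assays tested. Of the same 15, 2 were called, beside 18.6% of all assays: miR-409-3p (2.03 ± 0.475, adjusted p = 0.0283) and miR-376c (1.27 ± 0.348, adjusted p = 0.0344). With both sets pooled, DKO minus WT was -0.63 ± 0.286 for miR-127 (adjusted p = 0.181), and 0 of 3 members were called (1 at an unadjusted p under 0.05), where 13.8% of 167 assays were.

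Because miR-127 and miR-434-3p were read in every first-set sample, their Cq difference can be compared without scaling there as well. MiR-127 minus miR-434-3p was -1.83, -1.38 and -1.56 cycles in WT and -0.91, -0.80 and -0.48 in DKO retinas, so that the groups did not overlap, as did 47.1% of all 1830 pairs of first-set assays. In DicKO retinas it was -0.24, -0.65 and -1.35, and in DKO_DicKO retinas -0.03, -0.54, -2.33 and 0.64. A change between DKO and WT at least as large as that of this pair, in either direction, was found in 39.4% of the 1830 pairs. The pair that was tightest in the second set thus ranged more widely here, above all among the DKO_DicKO samples. It had been picked as the tightest there, and its range here was not compared with that of other first-set pairs.

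Samples floxed for Dicer1 had later mean Cq values for both members read throughout the first set, as had the table as a whole. The Cq of miR-127 was 24.6, 23.4 and 25.1 in WT against 28.0, 25.7 and 29.6 in DicKO retinas, and 26.8, 24.8 and 26.7 in DKO against 26.7, 28.5, 27.6 and 29.2 in DKO_DicKO retinas. Without scaling, its change was -3.37 ± 1.08 in DicKO against WT (limma, adjusted p = 0.0132), beside a median of -3.06 over all assays and 61.5% of assays called lower. For miR-434-3p the unscaled change was -2.52 (adjusted p = 0.0621). In DKO_DicKO against DKO the unscaled changes were -1.90 for miR-127 (adjusted p = 0.0955) and -1.74 for miR-434-3p (adjusted p = 0.141), beside a median of -2.76.

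After scaling, no member was called for Dicer1. In DicKO against WT, miR-127 stood at -0.50 ± 0.293 (limma, adjusted p = 0.187) and miR-434-3p at 0.34 ± 0.457 (adjusted p = 0.586); 0 of 3 members were called (0 at an unadjusted p under 0.05), where 36.1% of assays tested were. Without DicKO replicate 3, miR-136 was called higher (0.69, adjusted p = 0.0472). That sample had the latest mean Cq of the set (29.06) and so fixed the floor to which nearly all miR-136 values were raised. Leaving it out also moved the floor, and the 2 effects were not separated. In DKO_DicKO against DKO, miR-127 stood at 0.65 ± 0.274 (adjusted p = 0.0958) and miR-434-3p at 0.82 ± 0.426 (adjusted p = 0.159, or 0.0301 without DKO_DicKO replicate 3); 0 of 3 were called (1 at an unadjusted p under 0.05), where 4.80% of 125 assays were called higher and 27.2% lower. Against DicKO, DKO_DicKO retinas gave -0.22 ± 0.281 for miR-127 (adjusted p = 0.692), with 0 of 3 members and 0 of 99 assays called (0 and 12 at an unadjusted p under 0.05). The difference between the 2 Dicer1 effects was 1.16 ± 0.401 for miR-127 (adjusted p = 0.13), with 0 of 3 members called (1 at an unadjusted p under 0.05), where 5.93% of 135 assays were.

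MiR-136 shows what the floor does in the first set. Its Cq was 29.6, 27.5 and 29.7 in WT, 28.5 to 30.5 in the 3 DKO samples, 30.9, 28.5 and 31.6 in DicKO and 29.3, 31.4 and 31.4 in 3 DKO_DicKO retinas, with no Cq in replicate 3. All but 1 of the 12 scaled values fell below the floor of -2.94 and were raised to it, so the fit could show almost no change. With missing values left out and no floor, miR-136 was higher by 1.47 ± 0.318 in DicKO against WT (limma, adjusted p = 0.00578) and by 1.36 ± 0.324 in DKO_DicKO against DKO (adjusted p = 0.00698), where 18.2% and 14.2% of assays were called higher. The detection limit favours this direction. In DicKO replicate 3 no detected value could lie below -2.94, whereas WT values ran from -4.72 to -4.20, so that sample could only be higher or missing. DKO_DicKO replicate 3, without a Cq, was left out of the mean. The size and adjusted p of both changes therefore do not measure a rise of miR-136. These are also levels relative to a table in which most assays came up later. The Cq of miR-136 itself was on average 28.9 in WT and 30.3 in DicKO retinas.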

How the data were processed

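Total RNA was reverse transcribed with a pool of 522 stem-loop primers and pre-amplified for 14 cycles, per the labels' protocols. The deposited table holds the authors' Cq values, not normalized per its file name; threshold, baseline and software are not given in the sources used here. It has 10 further columns without a sample, which were not used. No 2 samples shared a Cq in any assay.

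Levels were scaled to the mean Cq of the assays at Cq 32 or lower in all samples of a fit, which were 61 (first set), 284 (second set) and 145 (both). A floor, the highest scaled value that Cq 32 had in a sample (-2.94, -7.40 and -4.83), replaced undetected and lower values. Testing required detection throughout 1 compared group. Fits used limma 3.58.1 in R 4.3.3 over all groups of a set, were tested on simulated data, and were adjusted over all assays tested; exact tests used scipy 1.17.1. Named assays were all members, the 3 largest called changes among 59 other Dlk1-Dio3 assays and the 5 most correlated assays. Members, lists and tests were chosen with earlier results of these data known. Alternatives changed the detection limit (Cq 35), scaling, floor, assays tested, samples, variance estimate and replicate block, and left out each sample in turn. The limit of Cq 35 could add no detected value in the first set, where the largest Cq was 31.9968.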

Additional observations from a re-analysis of the deposited data

Results flagged for a closer look

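The difference in DKO against WT between the 2 sets was tested directly and passed the threshold for miR-127, at 1.50 ± 0.37 (limma, adjusted p = 0.0283): lower in 3 of 3 DKO samples of the first set, and overlapping WT in the second. No sample of a 4-sample group stood apart in the check for outlying values over 9 groups of member values.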

How the results depend on the processing

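The fall of miR-433 in DKO_P53KO retinas kept its direction and its call under every alternative run except no scaling. Without scaling, 0 members were called for DKO against WT in the first set and for the difference between the sets, and 1 each for DKO_P53KO and DicKO against WT. That setting turned DKO against WT in the second set to -0.29 for miR-127, -0.19 for miR-433 and -0.11 for miR-434-5p. It turned DKO_P53KO against DKO to 0.39 for miR-127, 0.97 for miR-127-5p, 0.73 for miR-434-3p and 1.37 for miR-434-5p, and DKO_P53KO against WT to 0.11 for miR-127, 1.12 for miR-136 and 0.43 for miR-434-3p. MiR-434-3p turned to -2.52 in DicKO against WT, and miR-127 and miR-434-3p to -1.90 and -1.74 in DKO_DicKO against DKO. With only the groups compared in the fit, 1 member was called in either DKO_P53KO comparison. With missing values left out and no floor, 1 member was called in DicKO against WT and 1 in DKO_DicKO against DKO. The median in place of the mean called 4 members in DKO_P53KO against WT, with miR-434-5p at -0.075, and gave miR-127 0.11 in DKO_DicKO against DicKO. A global mean without Dlk1-Dio3 assays gave miR-434-5p -0.081 in DKO_P53KO against WT. Leaving out DKO replicate 2 and DKO_P53KO replicate 3 together, chosen after seeing the data, gave 0.064 for miR-127-5p and 0.082 for miR-434-5p against DKO and 0.040 for miR-136 against WT.

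With 1 sample left out at a time, the members called ranged from 0 to 1 for DKO against WT in the first set, for the difference between the sets, for DicKO against WT and for DKO_DicKO against DKO. They ranged from 1 to 3 in both DKO_P53KO comparisons, and relative to the domain from 1 to 3 against WT. Ranges that crossed 0 were -0.12 to 0.22 for miR-127 in DKO against WT of the second set, -0.20 to 0.53 for miR-136 and -0.53 to 0.10 for miR-434-5p in DKO_P53KO against DKO, -0.17 to 0.35 for miR-127-5p relative to the domain against DKO, and -0.33 to 0.13 for miR-136 and -0.26 to 0.37 for miR-434-5p in DKO_P53KO against WT. The numbers were not taken to pair samples: in each of 7 group pairs the lowest correlation of same-numbered deviations was under 0.1 (-0.37 to 0.06), although the highest was 0.07 to 0.66 and mean Cq of first-set WT and DKO ran in parallel by number. A fit with the replicate block gave -0.020 for miR-136 against DKO and -0.14 for miR-434-5p against WT, and called miR-434-3p against DKO (-1.07, limma, adjusted p = 0.0443), 3 members in place of 2. In the second set only DKO_P53KO has a replicate 4, so the block takes up that sample. These 3 estimates equal those obtained without DKO_P53KO replicate 4. No scaling and the replicate block together, added after seeing the data, called 0 members for DKO against WT in the first set (miR-127 -1.68, adjusted p = 0.806) and 0 for the difference between the sets. The causes of the other changes were not tested. The number of samples and, in the first set, wells without a Cq limit what could be detected.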
